A study of Homo sapiens with 8 samples.

Results

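Metastasis suppressors are genes that hold back the spread of a tumour to distant organs with little effect on the growth of the primary tumour. KISS1, first described in melanoma, is a founding example, and the genes set beside it here act at different places in the cell. The 7 genes are KISS1, its receptor KISS1R, NME1, BRMS1, CD82, PEBP1 and MAP2K4. They were read as every probe set, a group of probes summarised to 1 value, that carried the symbol of a single one of these genes. That gave 11 of 54613 probe sets and 7 of 19775 named genes. KISS1 was selected on its difference between soft and stiff arrays in an earlier analysis of the same arrays, so its difference is given as a description without a test. The other 6 genes were added by name with the results of these arrays already known, so their tests describe these arrays and are no independent evidence.

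The cells were MDA-MB-231, an established human breast cancer line without oestrogen receptor, progesterone receptor or HER2 amplification, cultured in serum-containing medium. One group grew for 2 days on a soft and the other for 2 days on a stiff substrate, with no other treatment named for either. Each group held 4 biological replicates, lettered A to D, with total RNA on 1 Affymetrix array each. The results come from 1 cell line, and neither the material nor the stiffness of the substrates was given in the sources used here.

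Values are deposited log2 RMA values, so a difference of 1 is a doubling. Arrays correlated with each other at 0.9932 to 0.9982. Of 7 markers of mesenchymal-like breast cancer cells, such as VIM and CD44, all 7 lay above a background level of 6.12, set from genes expected to be silent in breast. AXL was the 1 of them that passed the test, at -0.23 for soft minus stiff (SE 0.0575, adjusted p = 0.0318). Of 7 luminal markers 5 lay above that level, while PGR and CDH1 did not, and none of the 7 passed the test at the probe set read. ESR1, the oestrogen receptor gene, averaged 6.43 on soft and 6.38 on stiff, close to that level. The other luminal markers lay well above it. On soft and stiff, KRT8 averaged 11.2 and 11.1, EPCAM 9.8 and 9.9, GATA3 8.2 and 8.3, and ERBB2 8.0 and 8.0. Of the markers of fibroblasts, leukocytes and endothelium 1 of 4, 2 of 4 and 1 of 3 lay above background. Their summed log2 levels were 20.71 to 21.67 on soft and 20.69 to 21.43 on stiff for fibroblasts, 21.31 to 22.32 and 20.94 to 21.89 for leukocytes, and 18.03 to 18.39 and 17.34 to 17.96 for endothelium. PECAM1 was the marker of endothelium above background and rose on soft by 0.49 (SE 0.0694, adjusted p = 0.00211), while CDH5 and VWF lay below it. The part of these markers in the results was not tested.

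KISS1 encodes a precursor that proteases cut into kisspeptins, secreted peptides that bind the G-protein-coupled receptor KISS1R. In cancer cells its transcription has been linked to the factors SP1 and AP-2 alpha, the product of TFAP2A. NME1, also called NM23-H1, is a nucleoside diphosphate kinase. BRMS1 is a subunit of SIN3-histone deacetylase complexes, which repress transcription. CD82, also called KAI1, is a tetraspanin that organises integrins and growth factor receptors in the membrane. PEBP1, also called RKIP, dampens the kinase cascade to ERK. MAP2K4 is a kinase that, with other kinases, activates JNK and p38.

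KISS1 and NME1 had the lower values on soft described below, and their upstream sequences are shown for that reason. RefSeq's promoter table (GRCh38.p14) held 6 of the 7 genes, KISS1R being the one without an entry. In that build KISS1 lies at chr1:204190341-204196491, KISS1R at chr19:917333-921005, NME1 at chr17:51153559-51162168, BRMS1 at chr11:66337339-66345104, CD82 at chr11:44564409-44620358, PEBP1 at chr12:118136124-118145584 and MAP2K4 at chr17:12020877-12143828. The 250 bases before the start that the table uses are printed 5' to 3' on the gene's own strand, KISS1 from the minus strand at chr1:204196492-204196741 and NME1 from the plus strand at chr17:51153309-51153558. Capitals mark matches, on either strand, to a GC box, spelled GGGCGG in full, to a TATA box, whose letters searched were TATAAA in full, to an AP-2 motif, spelled GCCNNNGGC, or the CCAAT box, searched by the letters of its name.
KISS1: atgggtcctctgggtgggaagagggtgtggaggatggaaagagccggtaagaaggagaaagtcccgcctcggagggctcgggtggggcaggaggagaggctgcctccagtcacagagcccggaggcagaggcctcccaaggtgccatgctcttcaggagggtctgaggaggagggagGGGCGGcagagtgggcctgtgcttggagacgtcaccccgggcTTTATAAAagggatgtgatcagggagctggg
NME1: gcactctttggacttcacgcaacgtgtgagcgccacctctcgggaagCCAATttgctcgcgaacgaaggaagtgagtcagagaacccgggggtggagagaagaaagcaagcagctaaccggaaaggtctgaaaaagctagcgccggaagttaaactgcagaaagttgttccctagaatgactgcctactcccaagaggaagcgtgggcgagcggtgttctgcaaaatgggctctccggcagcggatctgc

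The KISS1 window held 1 GC box, starting 73 bases before the start of the gene, and 2 TATA box matches, starting 31 and 29 bases before it. The TATA matches lie on opposite strands and overlap. The NME1 window held 1 CCAAT box, starting 203 bases before the start, and none of the other 3 motifs. Among 35116 promoter windows of the same length, 42.6% held a GC box, 10.7% a TATA box, 19.8% an AP-2 motif and 32% a CCAAT box. Of the other members, CD82 had 4 GC boxes and 1 AP-2 motif, PEBP1 had 2 GC boxes and 1 CCAAT box, MAP2K4 had 1 GC box and BRMS1 had 1 AP-2 motif. For CD82 the table's window, chr11:44565413-44565662, lies inside the gene span given above. These matches describe the letters in the windows only.

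KISS1 was lower on soft in every array. Its probe set read 8.28, 8.46, 8.86 and 8.56 on soft arrays A to D, against 9.62, 9.77, 9.74 and 9.64 on stiff arrays A to D. The groups did not overlap, with the highest soft array at 8.86 and the lowest stiff array at 9.62, and the soft arrays were the more spread group. Means were 8.54 ± 0.243 on soft and 9.69 ± 0.0737 on stiff (SD, n = 4 each). The difference of -1.15 (SE 0.107) corresponds to 0.45 times the stiff level. In bulk RNA, fewer cells with the transcript and less transcript per cell cannot be told apart. With letters A and B alone the difference was -1.33, and with letters C and D alone it was -0.98. Over the same letters the soft means were 8.37 and 8.71 and the stiff means 9.70 and 9.69, so these 2 differences parted on the soft side. Leaving out each array in turn moved the difference between -1.26, without soft C, and -1.07, without soft A. The gene was read by 1 probe set, so no other probe set could be set beside it.

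KISS1R, the receptor for kisspeptins, was read below background on both substrates. Its only probe set gave 4.78, 4.53, 4.72 and 4.66 on soft and 4.43, 4.12, 4.59 and 4.59 on stiff, against the background level of 6.12. The ranges overlapped, with stiff B the lowest array. The difference was 0.24 (SE 0.105, adjusted p = 0.197), and its interval without adjustment for the number of probe sets ran from 0.0098 to 0.47 (95%). With both groups below background, these values do not show whether the receptor transcript differed.

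**Figure D1:**
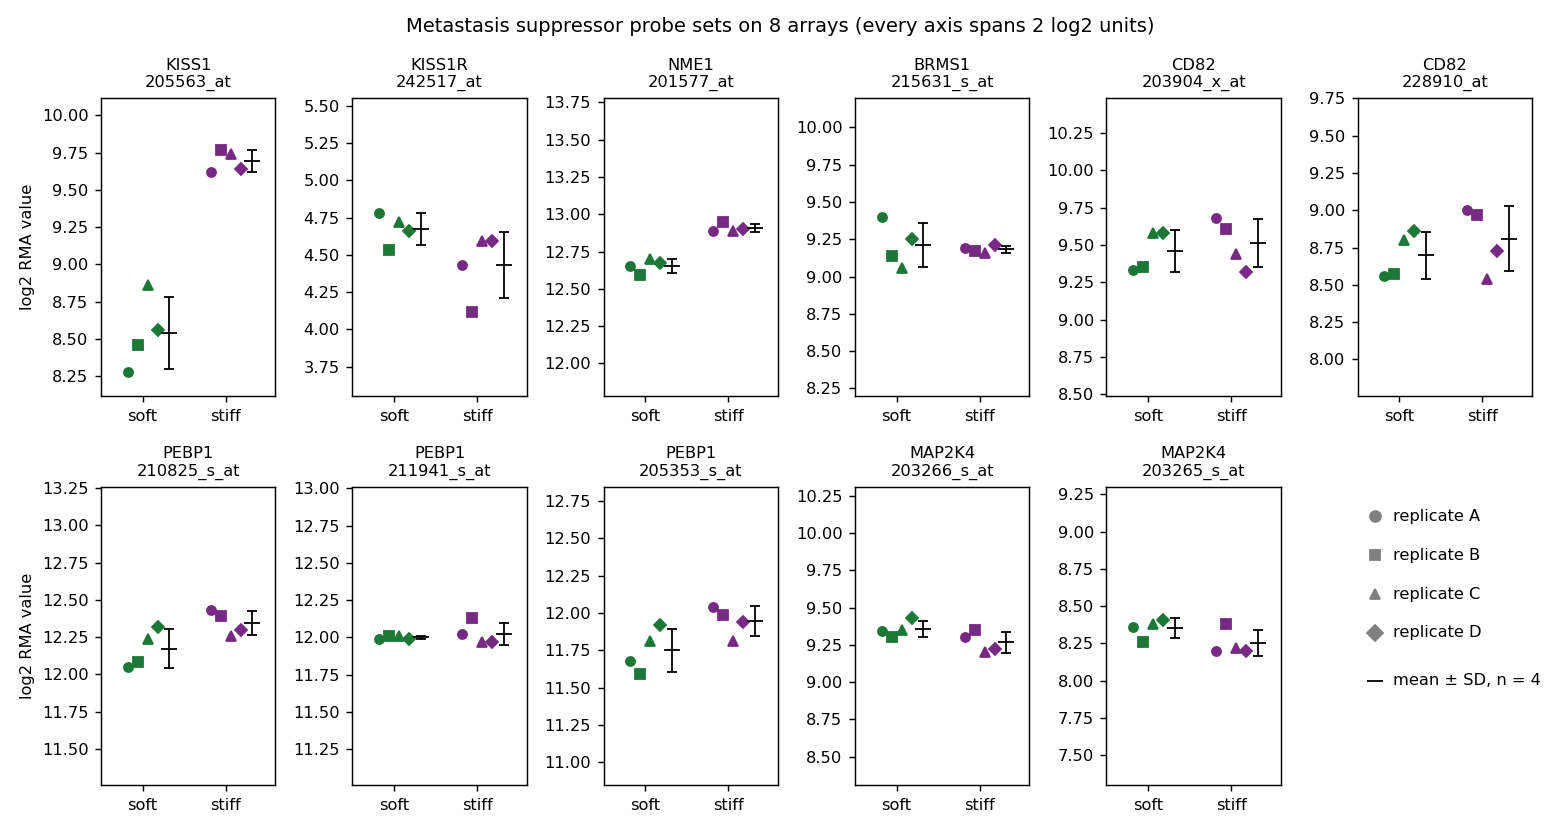
Deposited log2 RMA values (y axis) of the 11 probe sets on soft arrays (left in each panel) and stiff arrays (right), 1 point per array with a symbol per replicate letter, and mean ± SD beside them (n = 4). Soft and stiff points do not overlap for KISS1 and NME1, and overlap for the other 9 probe sets.

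NME1 was lower on soft by a smaller amount. It read 12.65, 12.59, 12.70 and 12.67 on soft arrays A to D, against 12.89, 12.95, 12.89 and 12.90 on stiff. The groups did not overlap and both were tight, at 12.65 ± 0.0465 on soft and 12.91 ± 0.0287 on stiff (SD, n = 4 each). The gene fell by 0.26 on the log2 scale (SE 0.0568, limma adjusted p = 0.0183), to 0.838 times the stiff level. Without stiff B the difference was -0.24 and missed the threshold (adjusted p = 0.0611), and over the 8 fits with 1 array left out the adjusted p ran from 0.0252 to 0.0611. It also missed the threshold in the 4 fits on 2 stiff arrays or on 2 letters of both groups (adjusted p 0.084 to 0.209). The NME1 probe set carries no mark for shared probes, but its near-identical neighbour NME2 had no probe set under its symbol alone, so a contribution of NME2 transcripts was not tested.

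Of the 10 probe sets of the genes other than KISS1, NME1 was the 1 that passed the threshold of 0.05, where 9.27% of all probe sets did. The groups did not overlap for 2 of the 11 probe sets, KISS1 and NME1, against 16.6% of all probe sets. Since the genes were chosen with these results known, nothing is read from either count.

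BRMS1, the corepressor subunit, showed no change that passed the test. Its probe set read 9.40, 9.14, 9.06 and 9.25 on soft and 9.19, 9.17, 9.16 and 9.21 on stiff. The stiff arrays lay inside the range of the soft arrays, and the widest value was soft A. The difference was 0.03 (SE 0.0762, adjusted p = 0.865, 95% interval -0.14 to 0.20), and without soft A it was -0.03.

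CD82, the tetraspanin, did not pass the test at either of its 2 probe sets. The order of its soft and stiff arrays differed between letters A and B and letters C and D, a split made after seeing the data. The first, which carries the mark for shared probes, read 9.33, 9.35, 9.58 and 9.58 on soft arrays A to D, against 9.68, 9.61, 9.44 and 9.32 on stiff. Soft minus stiff was -0.31 in letters A and B and 0.20 in letters C and D. The second read 8.56, 8.57, 8.80 and 8.86 on soft, against 9.0, 8.97, 8.54 and 8.73 on stiff. Its difference was -0.42 in letters A and B and 0.20 in letters C and D. Over all arrays the differences of the first and the second were -0.05 (SE 0.0949, adjusted p = 0.804, 95% interval -0.26 to 0.16) and -0.11 (SE 0.111, adjusted p = 0.614, 95% interval -0.36 to 0.13). Both probe sets were measured on the same RNA, so they are not separate replicates of this pattern. Over all probe sets, the second largest axis of variation between arrays (16.4%) also set stiff A and B apart from stiff C and D. Stiff A to D lay at 21.43, 16.29, -21.52 and -11.81 on it, and soft A to D at 3.7, -13.9, -2.6 and 8.5. The labels do not say what arrays of 1 letter share, and the difference between the letter pairs was not tested. Over all probe sets, soft and stiff arrays of the same letter deviated together by -0.118 to 0.122 (Pearson r). The letters were therefore not taken to pair the arrays.

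PEBP1, the inhibitor of the ERK cascade, did not pass the test at any of its 3 probe sets. The first read 12.05, 12.08, 12.24 and 12.32 on soft, against 12.43, 12.39, 12.26 and 12.30 on stiff. The third read 11.68, 11.59, 11.81 and 11.92 on soft, against 12.04, 11.99, 11.81 and 11.94 on stiff. In both, soft arrays A and B were the low ones, and soft C and D reached the level of stiff C and D. The differences, with 95% intervals not adjusted for the number of probe sets, were -0.17 (SE 0.0768, adjusted p = 0.206, interval -0.34 to -0.0038) and -0.20 (SE 0.0835, adjusted p = 0.187, interval -0.38 to -0.012). In letters A and B alone they were -0.35 (adjusted p = 0.0968) and -0.38 (adjusted p = 0.0861), and in letters C and D alone 0 and -0.01. The second probe set lay between 11.99 and 12.01 on soft and between 11.97 and 12.13 on stiff, with a difference of -0.02 (SE 0.0601, adjusted p = 0.872, 95% interval -0.15 to 0.11). All 3 carry the mark for shared probes, and they did not give the same difference.

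**Figure D2:**
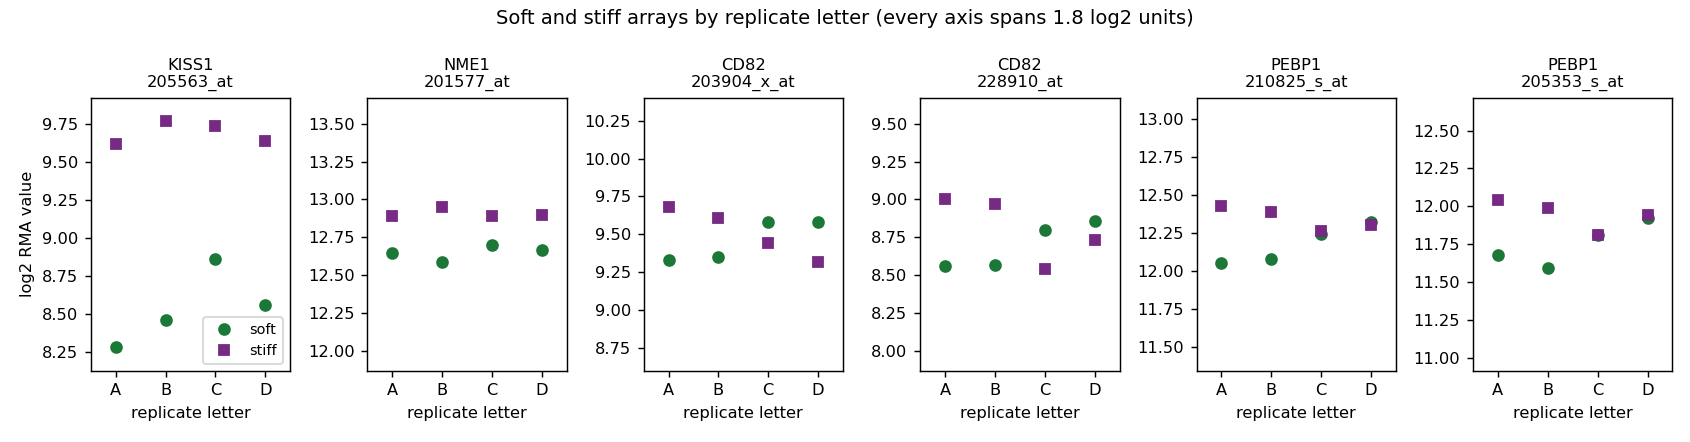
Deposited log2 RMA values (y axis) of 6 probe sets by replicate letter (x axis), soft arrays as circles and stiff arrays as squares. Soft lies below stiff at every letter for KISS1 and NME1, while for CD82 soft lies below stiff at A and B and above it at C and D, and for PEBP1 the groups meet at C and D. The letters were not taken to pair the arrays.

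MAP2K4, a kinase upstream of JNK, was read by 2 probe sets that gave nearly the same small difference, neither past the threshold. The first read 9.34, 9.30, 9.35 and 9.43 on soft, against 9.30, 9.35, 9.20 and 9.22 on stiff. Its difference was 0.09 (SE 0.0623, adjusted p = 0.458, 95% interval -0.05 to 0.22). The second read 8.36, 8.26, 8.38 and 8.41 on soft, against 8.20, 8.38, 8.22 and 8.20 on stiff. Its difference was 0.10 (SE 0.0665, adjusted p = 0.407, 95% interval -0.04 to 0.25). Stiff B was the high stiff array in both, and at both probe sets soft exceeded stiff in letters C and D, by 0.18 and 0.185, while in letters A and B the differences were -0.005 and 0.02.

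**Figure D3:**
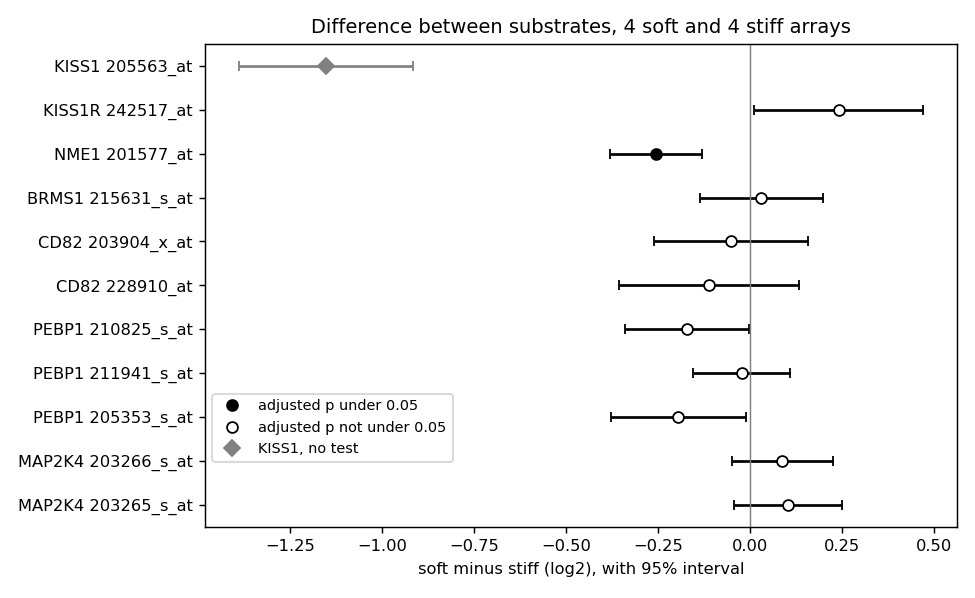
Soft minus stiff on the log2 scale (x axis) for the 11 probe sets, with the 95% interval of the limma fit, not adjusted for the number of probe sets. NME1 is filled because its adjusted p was under 0.05, KISS1 is a grey diamond because it was chosen on this difference and is not tested, and the other 9 are open.

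The genes that make, receive and pass on the signals of these suppressors were taken from 8 lists of 111 genes, of which 98 had a usable probe set. Each gene is read at its probe set with the highest mean, and the counts for each list below are taken there. Another probe set passed for 17 genes without a call at the one read. Of the 98 genes, 12 rose on soft and 4 fell, against 4.39% rising and 5.93% falling among all genes. Their median difference was 0.0112 and that of all genes 0.0075. The lists were drawn up with earlier results of these arrays known, and some genes stand in more than 1 list.

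Of 10 regulators and processing enzymes of kisspeptin, 1 rose and 1 fell at the probe set read here (list median 0.03). MMP14 and TXNIP, named after their values were seen, had no call there but were higher at other probe sets, 3 of 4 and 2 of 3. SP1, the factor that binds GC boxes, rose by 0.31 (SE 0.0759, adjusted p = 0.0289). It read 9.94, 9.84, 9.88 and 10.17 on soft, against 9.64, 9.65, 9.65 and 9.66 on stiff, so the groups did not overlap. TFAP2A, which encodes AP-2 alpha, fell by 0.26 (SE 0.0615, adjusted p = 0.0251), with 7.59 to 7.73 on soft and 7.86 to 7.98 on stiff. Each passed at 1 of its probe sets, of which SP1 has 4 and TFAP2A 3. With the mean of its probe sets SP1 was at 0.17 (adjusted p = 0.0424), and TFAP2A, at -0.02, did not pass (adjusted p = 0.855). The call of SP1 was lost without any one of soft A, soft D or the 4 stiff arrays (adjusted p up to 0.0722), and that of TFAP2A without soft C, soft D, stiff A, stiff B or stiff D (up to 0.0781).

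Of 14 measured genes of kisspeptin receptor signalling, 3 rose and 1 fell (list median 0.0275). KISS1R works through Gq and G11 proteins and phospholipase C, which releases calcium through IP3 receptors and activates protein kinase C. PRKCA, a protein kinase C, rose by 0.31 (SE 0.0597, adjusted p = 0.00965), with 11.54 to 11.67 on soft and 11.24 to 11.34 on stiff, at 1 of 5 probe sets, and kept its call without any 1 array. With the mean of its probe sets it was 0.07 and did not pass (adjusted p = 0.466). GNAQ, the Gq alpha subunit, rose by 0.26 (SE 0.0617, adjusted p = 0.0252), and 2 of its 5 probe sets passed. GNA11 differed by -0.06 (SE 0.0698, adjusted p = 0.692). Among the IP3 receptors, ITPR3 and ITPR2 went apart, while ITPR1 differed by 0.06 (SE 0.0678, adjusted p = 0.681). ITPR3 rose by 0.35 (SE 0.0949, adjusted p = 0.0445), and 2 of its 4 probe sets passed. ITPR2 fell by 0.52 (SE 0.134, adjusted p = 0.034), and 1 of its 4 probe sets passed. The ITPR2 groups overlapped, at 6.43 to 7.17 on soft and 7.12 to 7.40 on stiff. Calls were lost without soft A, soft B, stiff A or stiff C for GNAQ (adjusted p up to 0.0695), without any array but soft C or stiff D for ITPR3 (up to 0.124), and without any array but soft B or stiff A for ITPR2 (up to 0.093). With the mean of a gene's probe sets ITPR3 was at 0.22 (adjusted p = 0.0407) and ITPR2 at -0.18 (adjusted p = 0.04). ITPR3 did not pass among probe sets without shared probes (0.19, adjusted p = 0.203), with median centring (0.33, adjusted p = 0.0501) or with array weights (0.31, adjusted p = 0.0624).

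Around NME1, 1 of 10 measured relatives and partners rose and none fell (list median -0.0325). TIAM1, an exchange factor for RAC1 that NME1 binds, rose by 0.27 (SE 0.0634, adjusted p = 0.0241), and 1 of its 2 probe sets passed. It read 9.37 to 9.46 on soft and 9.08 to 9.26 on stiff, and lost its call without soft D, stiff B, stiff C or stiff D (adjusted p up to 0.0756) and when its probe sets were averaged (0.19, adjusted p = 0.0783). Around BRMS1, none of 12 measured subunits of the SIN3 complex passed limma's adjusted threshold, at the probe set read here. Of the 12, 4 had an unadjusted p under 0.05 in limma, as did 4942 of all 19775 genes. Other probe sets of 3 of the subunits, named after their values were seen, did pass. SIN3B, a scaffold like SIN3A, was higher at 2 of 3 probe sets (0.28, adjusted p = 0.0264, and 0.46, adjusted p = 0.0051). SAP30 was lower at 1 of 4 (-0.39, adjusted p = 0.0221), and ING1 at 1 of 4 (-0.37, adjusted p = 0.0066). SIN3A, the scaffold, differed by -0.05 (SE 0.0583, adjusted p = 0.714).

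Around CD82, 3 of 16 measured tetraspanins and partners rose and none fell at the probe set read here (list median 0.0175). All 3 are tetraspanins themselves. Some partners, named after their values were seen, passed at another probe set. ITGB1 was lower at 1 of 7 and MET at 1 of 4, while ITGA6 was higher at 1 of 2 and EGFR at 1 of 9. TSPAN8 rose by 0.77 (SE 0.0873, adjusted p = 0.000716), with 12.45, 12.41, 12.28 and 12.33 on soft, against 11.47, 11.48, 11.62 and 11.84 on stiff. CD9 rose by 0.46 (SE 0.111, adjusted p = 0.0272), with 13.33, 13.23, 13.20 and 13.28 on soft, against 12.59, 12.57, 12.97 and 13.08 on stiff. Its stiff arrays fell into a lower pair, A and B, and a higher pair, C and D, and against stiff C and D alone it did not pass (difference 0.24, adjusted p = 0.139). The mean of its 3 probe sets gave 0.27 (adjusted p = 0.0427). CD151, the third, named because the count is small, rose by 0.32 (SE 0.0749, adjusted p = 0.0231). CD81 differed by -0.01 (SE 0.0605, adjusted p = 0.933), with a sign that turned under quantile normalization and cyclic loess. CD151 lost its call without soft A, soft D, stiff A or stiff B (adjusted p up to 0.0723), and CD9 without soft A, soft B, soft D, stiff A or stiff B (adjusted p up to 0.0762).

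**Figure D4:**
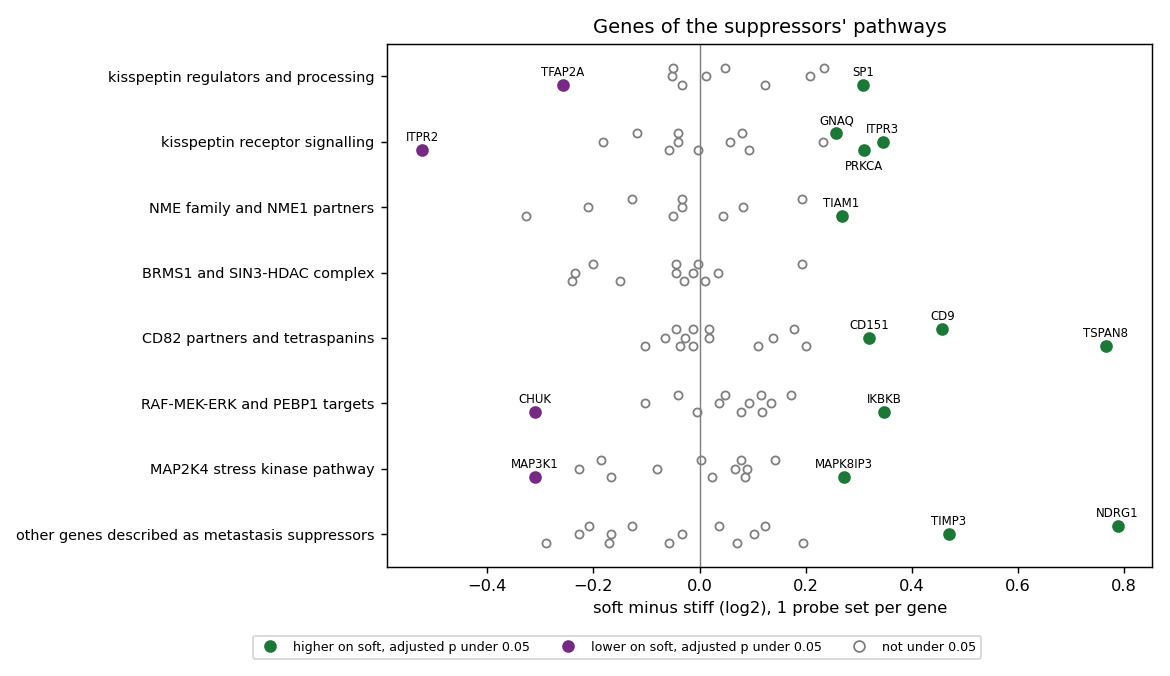
Soft minus stiff on the log2 scale (x axis) for the measured genes of the 8 lists (rows), 1 point per gene at its probe set with the highest mean, filled and named where the adjusted p was under 0.05. The 12 genes that rose and the 4 that fell are spread over 7 of the 8 lists, and TSPAN8 and NDRG1 lie farthest to the right.

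Of 13 measured genes of the ERK cascade and other PEBP1 targets, 1 rose and 1 fell (list median 0.0775). Both encode kinases of the NF-kB pathway, which PEBP1 also binds. IKBKB rose by 0.35 (SE 0.063, adjusted p = 0.00732) and CHUK fell by 0.31 (SE 0.0843, adjusted p = 0.0426). CHUK lost its call without any array but soft B or soft C (adjusted p up to 0.108), and IKBKB kept it without any 1 array. Of 13 measured genes of the stress kinase pathway around MAP2K4, 1 rose and 1 fell (list median 0.0225). MAP3K1, a kinase that activates MAP2K4, fell by 0.31 (SE 0.063, adjusted p = 0.0122), with 10.08 to 10.23 on soft and 10.38 to 10.54 on stiff. The mean of its 2 probe sets, at -0.26, did not pass (adjusted p = 0.0702). MAPK8IP3, a JNK scaffold also called JIP3, rose by 0.27 (SE 0.0674, adjusted p = 0.0291), at 1 of 5 probe sets, and lost its call without soft A or any 1 stiff array (adjusted p up to 0.0856) and when its probe sets were averaged (0.07, adjusted p = 0.539) or restricted to those without shared probes (0.04, adjusted p = 0.87).

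Of 15 measured genes that have been described elsewhere as metastasis suppressors, 2 rose and none fell at the probe set read here (list median -0.0325). Another probe set passed for 4 of the genes without a call, named after their values were seen. DLC1 was lower at 2 of its 5 probe sets (-0.32, adjusted p = 0.0299, and -0.34, adjusted p = 0.0244), and at the one read here it was at -0.21 (adjusted p = 0.0996). CDH1, below background at the one read, was lower at 1 of 2. TXNIP was higher at 2 of 3 and CDH11 at 1 of 4. NDRG1, a stress-induced protein, rose by 0.79 (SE 0.0919, adjusted p = 0.00078), with 11.02, 11.01, 10.68 and 10.92 on soft, against 10.15, 9.93, 10.19 and 10.21 on stiff. TIMP3, an inhibitor of matrix metalloproteinases, rose by 0.47 (SE 0.0989, adjusted p = 0.0143), and all 4 of its probe sets passed, with differences from 0.47 to 1.38 and a mean over them of 0.76.

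The genes whose pattern over the 8 arrays was most like that of KISS1 were AGMAT, ARHGEF26, POLR1E, GUF1 and LETM1, with Pearson r of 0.9996, 0.9971, 0.9957, 0.9956 and 0.9954. They were taken from 11762 genes with a group mean above background. Soft and stiff arrays form separate clusters for KISS1, so a high r mostly restates a difference between the groups. The 5 genes were chosen by this r, which is given without a test. With the mean of each gene's probe sets, r in the same order was 0.9416, 0.9748, 0.9462, 0.9515 and 0.8597. AGMAT read 7.30, 7.38, 7.64 and 7.45 on soft, against 8.13, 8.21, 8.21 and 8.15 on stiff. Soft C was the highest soft array for KISS1 and for each of the 5.

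**Figure D5:**
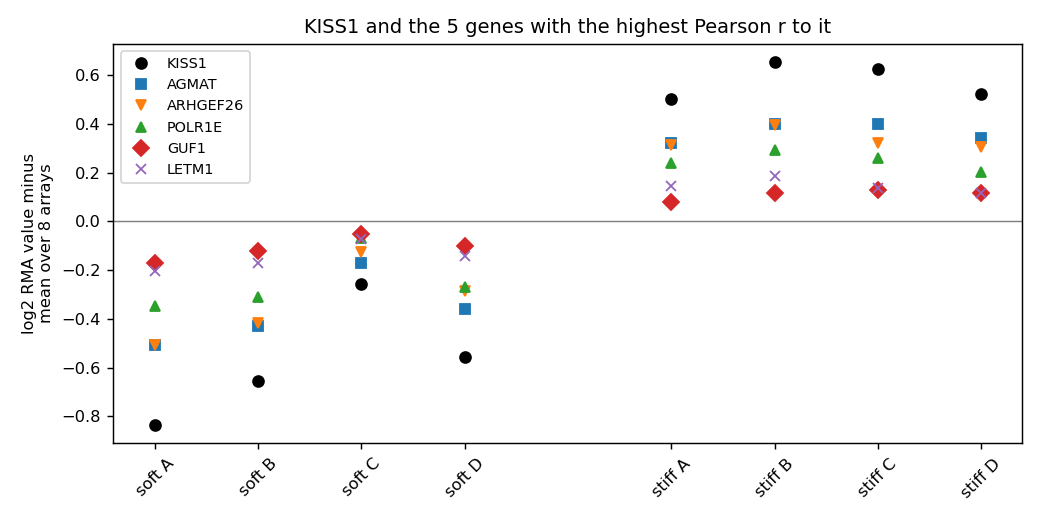
Log2 RMA value minus the mean over the 8 arrays (y axis) for KISS1 and the 5 genes most like it, on soft arrays (left) and stiff arrays (right). All 6 genes lie below their mean on each soft array and above it on each stiff array, and KISS1 has the widest range.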

How the data were processed

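The authors deposited a table of log2 values for 8 arrays, made with RMA, per the submitters' processing notes. Which software and probe definition they used is not given in the sources used here. RMA corrects background, equalises arrays and summarises probes, so it removes shifts common to all genes. That the deposited values are log2, given to 2 decimals, follows from their range.

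Of 54675 probe sets, 62 manufacturer controls were left out. Symbols came from the platform annotation, updated by gene identifier: 41091 probe sets had 1 symbol, 1801 several and 11721 none. Probe sets with several were not used. For background, 17 genes expected to be silent were listed, 14 were measured, and the 95th percentile over their means was taken.

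Soft and stiff were compared with limma 3.58.1 in R 4.3.3 (lmFit, eBayes, two-sided) on all 8 arrays, with Benjamini-Hochberg adjustment over 54613 probe sets and a threshold of 0.05. Differences are soft minus stiff, with the moderated standard error (SE). The fit was tried on simulated data with planted changes larger than most of those named here, so recovery of smaller changes was not examined. The labels call the replicates biological without saying what separated them, so p-values reflect only how these arrays vary. Precision is limited by their number. The members and gene lists were chosen with earlier results of these data known. Named were all members, the genes past the threshold with the largest differences in each list, up to 2 per direction, 9 fixed partners or paralogs, of which NME2, BRMS1L and MAP2K7 had no usable probe set and 1 is not reported here, the 5 genes most like KISS1 and markers of cell types. CD151, ITPR1, MMP14, TXNIP, SIN3B, SAP30, ING1, ITGA6, ITGB1, EGFR, MET, DLC1, CDH1 and CDH11 were named after their values were seen. Alternatives were a replicate block, 3 scalings, 2 filters on dim probe sets, a trended robust variance, array weights, subsets of arrays, leaving out each array, the mean of a gene's probe sets, probe sets without shared probes and, for likeness, Spearman's rho. Fits on 2 letters of both groups were added after seeing the data.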

Additional observations from a re-analysis of the deposited data

Results flagged for a closer look

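Among 70 groups of 4 arrays examined, 3 held an array apart from the others by Dixon's 95% criterion. Chance flags about 5% of groups. NME1 on stiff B read 12.95, with the next stiff array at 12.90. The second MAP2K4 probe set on stiff B read 8.38, with the next stiff array at 8.22. TFAP2A on stiff D read 7.98, with the next stiff array at 7.88.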

How the results depend on the processing

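KISS1, chosen on this contrast, was lower on soft in 22 alternatives, with differences from -1.33 to -0.98. For KISS1 and NME1 soft and stiff arrays did not overlap, so no subset of arrays could turn the sign. The block, the filters and the trended variance leave a difference as it was, so the kept direction is no separate evidence. NME1 was lower in 22 alternatives, at -0.30 to -0.21, and passed the limma threshold in 16 of them (adjusted p 0.000433 to 0.209). It missed it with the replicate block, without stiff B, and in the 4 fits on fewer arrays. Of the 11 member probe sets, 5 had opposite signs in letters A and B and in letters C and D. The share of all probe sets with opposite signs was not taken, so nothing is read from this count. Some of these differences were small, such as 0.09 and -0.03 for BRMS1. With the replicate block, 3937 probe sets in place of 5061 and 0 of the 10 member probe sets other than KISS1 in place of 1 passed in limma (2 at an unadjusted p under 0.05). The same letters of the groups deviated together by -0.118 to 0.122 (Pearson r over probe sets) and soft arrays matched best with their own letter in 1 of 4 cases, so the letters were not taken to pair the arrays. With stiff A and B only, stiff C and D only, letters A and B only and letters C and D only, 2659, 2188, 1299 and 392 probe sets passed. In these limma fits 0 of the 10 member probe sets passed (5, 1, 6 and 2 at an unadjusted p under 0.05), and 9, 4, 6 and 0 of the pathway genes in place of 16. In the last of these fits 27 of 98 pathway genes had an unadjusted p under 0.05 in limma. The share of all probe sets or genes at that cut was not taken for the alternatives given here. In the main fit 4942 of 19775 genes and 36 of the 98 pathway genes were under it. Leaving out 1 array gave 2851 to 5080 probe sets, 0 to 1 of the 10 member probe sets (0 without stiff B in limma, with 1 at an unadjusted p under 0.05) and 7 to 17 pathway genes. Pathway calls rose to 29 of 83 above background, 28 of 83 above the median level and 27 of 98 with the trended, robust variance. Over all probe sets calls rose too in these fits, from 5061 of 54613 to 6875 of 25730, 6700 of 27296 and 6747 of 54613. Fewer arrays and fewer probe sets tested are part of how these fits were built. Scaling moved the median of all probe sets by under 0.1. AGMAT's likeness to KISS1 was 0.994 by Spearman's rho and 0.9416 with the mean of all probe sets.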

Other observations

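The genes beside KISS1 on chromosome 1, chosen after the data were seen, did not pass the test. They are the 3 nearest genes with a usable probe set on each side in RefSeq's order. SOX13, a transcription factor, differed by 0.25 (SE 0.0715, adjusted p = 0.0561), with 8.27 to 8.42 on soft and 7.96 to 8.21 on stiff. PLEKHA6, on the other side, differed by -0.27 (SE 0.0982, adjusted p = 0.119), with 7.07 to 7.46 on soft and 7.42 to 7.71 on stiff. The differences of ETNK2, ERLNC1, GOLT1A and LINC00628 ran from -0.15 to -0.01, and ETNK2, GOLT1A and LINC00628 lay below background on both substrates.

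The 4 probe sets of TIMP3 all passed but differed in size. One of them gave a mean of 12.08 on soft and 10.71 on stiff, a difference of 1.38 (SE 0.0835, adjusted p = 4.34e-05), while the one read above gave 0.47.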
